A study of Mus musculus with 9 samples.

Results

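Ephrins, Eph receptors, semaphorins, plexins, Slit, Robo and Unc5 genes were measured by RNA sequencing in endothelial cells isolated from mouse lung. Members were taken by symbol (Efna, Efnb, Epha, Ephb, Sema, Plxn, Robo, Slit or Unc5 followed by a letter or digit, without 1 class 3 semaphorin and the Slitrk genes), which gave 28 of the 9277 genes of the table. They comprise 14 ligands (3 ephrins, 10 semaphorins and Slit3) and 14 receptors (4 Eph receptors, 7 plexins, Robo4, Unc5a and Unc5b). The libraries came from wild type mice (Tie1-WT, n = 4) and from mice whose Tie1, an endothelial receptor tyrosine kinase, resists proteolytic cleavage (Tie1-CR, n = 5). Every library name carries PBS, so PBS is common to both genotypes. The sources used here do not give strain, age, how the Tie1-CR allele was made or how cells were isolated. The comparison bears on how transcripts of vascular guidance genes differ when Tie1 cannot be cleaved.

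Guidance molecules were first studied in axons and also steer the sprouting, sorting and barrier of blood vessels. Ephrins are membrane-bound ligands, and on contact both the Eph receptor and the ephrin can signal, so cells of arterial and venous identity, marked by Efnb2 and Ephb4 respectively, are kept apart. Semaphorins, secreted in class 3 and membrane-bound in classes 4 to 7, signal through plexins, for class 3 mostly with neuropilin coreceptors. Slit proteins are ligands of Robo receptors, and Unc5 proteins bind netrins. Robo4 is the Robo of endothelium and has been described as a partner of Unc5b.

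The labelled cell type was matched by high levels of the endothelial cadherin Cdh5 (1500.2 ± 97.8 CPM in wild type and 1561 ± 83.7 CPM in Tie1-CR, SD) and of Tie1 itself (2136 ± 42.9 and 2433 ± 143 CPM, SD). CPM are reads of a gene scaled to the reads counted in its library, with 38208696 to 54408116 reads counted per library. None of 14 leukocyte, 6 erythroid and 6 mesothelial markers was among the genes of the table, each of which reaches 10 CPM in some library. Markers of some other cell types were present. Fibroblast markers (5 of 10) summed to 25.5 to 100.2 CPM in wild type and 20.7 to 90.9 CPM in Tie1-CR. Pericyte and smooth muscle markers (3 of 10) summed to 30.4 to 55.7 and 23.7 to 70.6 CPM, and platelet markers (4 of 7) to 53.7 to 138.7 and 100.3 to 136.7 CPM. Tie1 was higher in every Tie1-CR library (2329 to 2679 CPM) than in any Tie1-WT library (2079 to 2171 CPM). It was not called (limma adjusted p = 0.107). Of the 8 pan-endothelial markers listed, which include Cdh5 and Tie1, 1 was called lower in Tie1-CR and 0 were called higher. Their sums overlapped, at 12933 to 14292 CPM in wild type and 13707 to 14802 CPM in Tie1-CR. Some other markers also moved with genotype. The 14 immediate early genes, which cells transcribe within minutes of a stimulus, summed to 14949 to 21130 CPM in wild type and 10383 to 13535 CPM in Tie1-CR, with 11 of the 14 called lower. The 5 of 8 airway markers in the table summed to 16.4 to 45.5 CPM in wild type and 55.0 to 92.1 CPM in Tie1-CR, so neither list overlapped between genotypes. Type 2 pneumocyte markers (6 of 9 in the table) overlapped, at 135 to 533 and 343 to 739 CPM, with a median log2 difference of 1.07. Type 1 pneumocyte markers (6 of 8 in the table) also overlapped, at 953 to 1182 and 995 to 1116 CPM. Their median log2 difference was -0.33.

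Of the 28 genes, 1 was called higher in Tie1-CR (Ephb4) and 1 lower (Epha1), both Eph receptors. A gene was called when its adjusted p was below 0.05 in limma's moderated test on log2(CPM + 1), with Benjamini-Hochberg adjustment over all 9277 genes. Over all genes, 1.28% were called higher and 2.77% lower, so 1 call in each direction among 28 genes was close to the background share. Epha1 reached 10 CPM in Tie1-WT only, and among the 26 members that reached it in both genotypes there was 1 call, Ephb4. For these called receptors, the 250 bases before each one's transcription start, from RefSeq on GRCm38.p6, are shown 5′ to 3′ on the strand of the gene. Capitals mark matches to the GC box (GGGCGG, either strand), the only motif of 5 searched that was found in these windows. The Ephb4 window is chr5:137349859-137350108 (+ strand) and the Epha1 window chr6:42373269-42373518 (− strand).

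Ephb4: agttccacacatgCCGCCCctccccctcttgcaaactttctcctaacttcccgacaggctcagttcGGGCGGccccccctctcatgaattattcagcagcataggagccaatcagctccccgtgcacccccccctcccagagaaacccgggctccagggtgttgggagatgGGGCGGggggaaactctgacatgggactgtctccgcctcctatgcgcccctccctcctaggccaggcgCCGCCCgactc
Epha1: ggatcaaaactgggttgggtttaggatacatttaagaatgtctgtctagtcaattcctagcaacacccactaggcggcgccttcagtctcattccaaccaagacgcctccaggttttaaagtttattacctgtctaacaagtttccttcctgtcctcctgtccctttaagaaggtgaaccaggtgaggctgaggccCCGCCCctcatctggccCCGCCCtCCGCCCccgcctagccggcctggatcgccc

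The Ephb4 window holds 4 GC box matches and 64.0% G and C, and the Epha1 window 3 matches and 54.4%, where the median window of the RefSeq set holds 52.4%. A GC box was found in 32.7% of all 32851 windows of the set, which also holds windows of genes outside the table, and in the windows of 21 of the 23 members that the set contains. The AP-1 site (TGANTCA, in 6.75% of all windows), the forkhead site (GTAAACA, 3.17%), the RBPJ site (TGGGAA, 21.6%) and the TATA box (TATAAA, 12.4%) were not found in either receptor's window on either strand. Among the 23 members these motifs were found in 1, 0, 6 and 1 windows. A match is a run of letters and not evidence of binding.

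Ephb4, the Eph receptor of venous and capillary endothelium and the main receptor of ephrin-B2, was higher in every Tie1-CR library. It measured 777, 792, 755 and 842 CPM in the 4 Tie1-WT libraries and 971, 1016, 1031, 1021 and 959 CPM in the 5 Tie1-CR libraries. The lowest Tie1-CR library lay above the highest Tie1-WT library, and the spread within each genotype was small (791.9 ± 37.0 and 999.7 ± 32.1 CPM, SD, n = 4 and 5). The gene rose 1.26-fold, a log2 difference of 0.34 (SE 0.05, 95% interval 0.22 to 0.45, limma adjusted p = 0.00787). It lies on chromosome 5 (137350109 to 137378669, GRCm38). With each library left out in turn it was called in all 9 fits. The call ended when the mean level of type 2 pneumocyte, airway and general epithelial markers was a covariate (0.30 log2, limma adjusted p = 0.212). This epithelial covariate held no type 1 pneumocyte markers. The call also ended when the mean level of the immediate early genes was the covariate (0.21 log2, limma adjusted p = 0.748). In those fits 8 and 1 of all 9277 genes were called. The immediate early level does not overlap between genotypes, so the 2 cannot be told apart.

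Epha1, the founding member of the Eph family, best known from epithelia, was lower in every Tie1-CR library. Its level was 11.5, 13.5, 11.5 and 7.88 CPM in wild type and 3.36, 6.49, 6.31, 5.50 and 6.25 CPM in Tie1-CR. Even the lowest Tie1-WT library, replicate 4, stood above all 5 Tie1-CR libraries. The gene fell 1.98-fold, with a log2 difference of -0.88 (SE 0.18, 95% interval -1.28 to -0.48, limma adjusted p = 0.0252). Epha1 lies on chromosome 6 (42358487 to 42373268, GRCm38) and was read at least 183 times in each library, where counting alone gives an error of 7.39% at the lowest count. It reached 10 CPM in Tie1-WT libraries only, so it entered the table through the genotype where it is high, and a gene selected in this way is tilted towards a difference in that direction. The call ended when wild type replicate 1, 2 or 3 was left out, or replicate 4 of Tie1-CR (limma adjusted p = 0.0537 to 0.0924), with differences of -0.88 to -0.79. In the other 5 fits with a library left out it was -1.02 to -0.74 and the call was kept. The fits that ended the call held 60 to 183 calls over all 9277 genes, and those that kept it 282 to 355, against 376 in the main fit. With the epithelial covariate the difference was -0.90 log2 (adjusted p = 0.256), and with the immediate early covariate 0.06 log2 (adjusted p = 0.980).

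**Figure D1:**
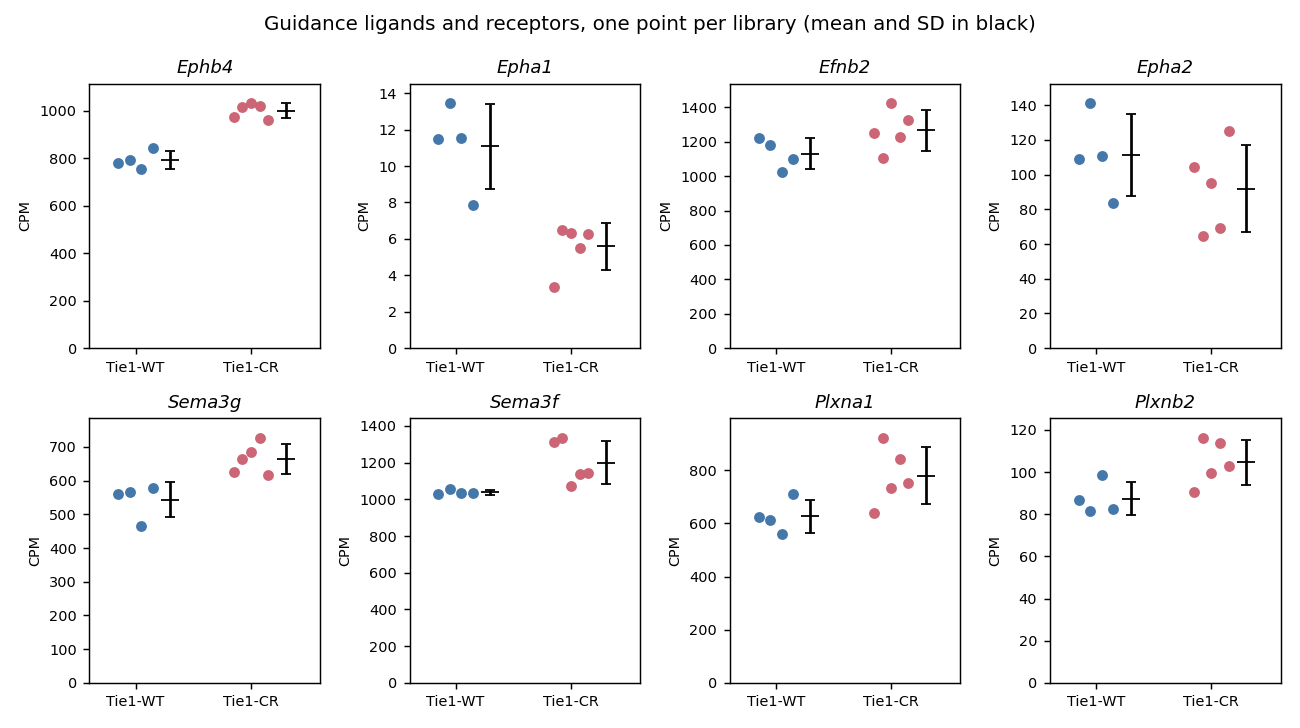
CPM of 8 guidance genes (y axes, from 0) by genotype, with a point for each library and the mean and SD in black. Ephb4 separates the genotypes from below (755 to 842 against 959 to 1031 CPM), Epha1 from above, and Sema3g and Sema3f also separate, while Efnb2, Epha2, Plxna1 and Plxnb2 overlap.

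The other A-class receptors were not called. Epha2, a receptor of ephrin-A1 with roles in angiogenesis and barrier function, measured 109, 141, 111 and 83.4 CPM in wild type and 105, 64.7, 95.1, 69.5 and 125 CPM in Tie1-CR. The genotypes overlapped widely, and the SD was 21.3% and 27.3% of the mean, so a log2 difference of -0.29 had a 95% interval of -0.72 to 0.13 (limma adjusted p = 0.396). Epha4, which binds ephrins of both classes, measured 59.2, 60.5, 54.8 and 51.4 CPM in wild type and 56.5, 57.6, 58.3, 77.2 and 55.2 CPM in Tie1-CR. Replicate 4 of Tie1-CR stood above all other libraries and the rest overlapped, for a log2 difference of 0.10 (interval -0.11 to 0.31).

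The 3 ephrins in the table all had positive differences, and none was called. Efnb2, the transmembrane ligand of Ephb4 and a marker of arterial endothelium, measured 1222, 1182, 1023 and 1101 CPM in wild type and 1251, 1105, 1425, 1228 and 1326 CPM in Tie1-CR. In 4 of 5 Tie1-CR libraries it was above all Tie1-WT libraries, and replicate 2 lay among them (log2 difference 0.16, 95% interval -0.02 to 0.34, limma adjusted p = 0.267). Efna1, a membrane-anchored ligand of Epha2, measured 340, 274, 227 and 382 CPM in wild type and 361, 367, 336, 369 and 350 CPM in Tie1-CR. The Tie1-WT libraries spread widely (22.6% of the mean) around a narrow Tie1-CR group (3.78%), with a log2 difference of 0.25 and an interval of -0.02 to 0.52. Efnb1, a transmembrane ligand of several EphB receptors, measured 552, 594, 668 and 592 CPM in wild type and 736, 511, 731, 578 and 696 CPM in Tie1-CR. The Tie1-CR range enclosed the Tie1-WT range (log2 difference 0.10, interval -0.14 to 0.34).

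Among the 10 semaphorins, 7 had differences above 0 and 3 below, none was called, and 2 had genotypes that did not overlap. Both are secreted class 3 semaphorins. Sema3g, an endothelial semaphorin enriched in arteries, measured 561, 567, 467 and 578 CPM in wild type and 627, 666, 685, 727 and 616 CPM in Tie1-CR. All 5 Tie1-CR libraries stood above the 4 Tie1-WT libraries, of which replicate 3 was far below its group. Its log2 difference of 0.29 (SE 0.07, 95% interval 0.13 to 0.46) was just outside the threshold (limma adjusted p = 0.0545), and without Tie1-WT replicate 3 it was 0.22 (adjusted p = 0.109). It was called with TMM scaling (0.31 log2, adjusted p = 0.0487) and with library weights (0.25 log2, 0.0481). Those fits called 376 and 661 of all 9277 genes, against 376 in the main fit.

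Sema3f, a repulsive class 3 semaphorin that signals through neuropilin 2, had the highest level per length of the 28 genes. It measured 1027, 1058, 1037 and 1035 CPM in wild type and 1314, 1335, 1072, 1140 and 1141 CPM in Tie1-CR. The SD was 1.26% of the mean in Tie1-WT and 9.72% in Tie1-CR, and all Tie1-CR libraries were higher. The log2 difference was 0.20 (95% interval 0.05 to 0.36, limma adjusted p = 0.125). Every Tie1-CR library lay above every Tie1-WT library for 3 of the 28 genes, against 3.74% of all genes, and the reverse held for 1 of 28, against 6.74% of all genes.

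Of the other semaphorins, Sema6a, a class 6 semaphorin of endothelium that binds A-type plexins, measured 632, 657, 620 and 673 CPM in wild type and 608, 703, 690, 694 and 629 CPM in Tie1-CR. The Tie1-CR libraries extended past both ends of the Tie1-WT range, with a log2 difference of 0.04 (95% interval -0.09 to 0.17). Sema6d ran from 352 to 456 CPM and from 335 to 453 CPM (log2 difference -0.02, interval -0.22 to 0.19). Sema7a, a membrane-anchored ligand of Plxnc1 and of integrins, measured 156, 120, 158 and 151 CPM in wild type and 128, 140, 132, 143 and 142 CPM in Tie1-CR. The Tie1-CR values lay inside the Tie1-WT range (log2 difference -0.09, interval -0.26 to 0.09). Sema4c, a ligand of Plxnb2, was 104 to 141 CPM and 99.1 to 139.5 CPM (log2 difference -0.10, interval -0.35 to 0.15). Sema6c, at 13.9 to 18.5 and 17.4 to 21.0 CPM, had a log2 difference of 0.21 whose interval, 0.02 to 0.40, lay above 0 before adjustment over all genes (limma adjusted p = 0.178). The remaining semaphorins, Sema3b, Sema5a and Sema6b, had log2 differences of 0.05 to 0.20 and intervals that held 0.

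All 7 plexins in the table had positive log2 differences, from 0.06 to 0.31 with a median of 0.19, and none was called. Plxnb1 entered the table through Tie1-CR only, and the other 6 had a median of 0.15. Without Tie1-WT replicate 3, where Plxnc1 was low, 6 of the 7 were above 0 and their median was 0.15. All genes had a median of -0.03, with 41.5% above 0. Plxna1, which pairs with neuropilins to receive class 3 semaphorins, had the highest difference of the family. It measured 625, 614, 559 and 709 CPM in wild type and 641, 921, 734, 842 and 753 CPM in Tie1-CR. All Tie1-CR libraries but replicate 1 were above the Tie1-WT libraries (log2 difference 0.31, 95% interval 0.08 to 0.53, limma adjusted p = 0.109). Plxnb2, a receptor of class 4 semaphorins, measured 86.8, 81.5, 98.7 and 82.6 CPM in wild type and 90.6, 116, 99.6, 114 and 103 CPM in Tie1-CR. It too was above the Tie1-WT range in 4 of 5 Tie1-CR libraries, replicate 1 again being the exception (log2 difference 0.25, interval 0.08 to 0.43, limma adjusted p = 0.0952). With library weights Plxnb2 was called (0.26 log2, adjusted p = 0.0398). In that fit 661 of all 9277 genes were called, against 376 in the main fit.

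Plxnd1, the endothelial plexin that restrains sprouting in response to class 3 semaphorins, measured 291, 286, 317 and 331 CPM in wild type and 274, 305, 371, 363 and 298 CPM in Tie1-CR. It overlapped fully and had a log2 difference of 0.06 (95% interval -0.14 to 0.26). Plxna2, a receptor of class 6 semaphorins, measured 137, 120, 152 and 136 CPM and 105, 158, 159, 156 and 138 CPM. Here 3 Tie1-CR libraries were the highest of all and replicate 1 the lowest (log2 difference 0.06, interval -0.20 to 0.31). Plxnc1, the receptor of Sema7a, measured 47.6, 47.6, 23.2 and 48.0 CPM in wild type and 41.4, 58.1, 43.6, 45.01 and 42.2 CPM in Tie1-CR. Its difference of 0.19 log2 rested on 1 library, since it was -0.06 without Tie1-WT replicate 3. Plxna4 and Plxnb1 had differences of 0.10 and 0.24 log2, with intervals that held 0. Plxnb1 reached 10 CPM in Tie1-CR libraries only (8.58 to 12.0 CPM against 6.88 to 9.37 CPM), so it entered the table through the genotype where it is higher.

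Robo4, a Robo receptor largely restricted to endothelium and linked to barrier stability, measured 463, 480, 507 and 474 CPM in wild type and 518, 498, 528, 532 and 512 CPM in Tie1-CR. Only replicate 2 of Tie1-CR fell within the Tie1-WT range. The log2 difference was 0.11 with a narrow interval of 0.0033 to 0.21, and it was not called (limma adjusted p = 0.211). Slit3, the only Slit in the table, measured 28.4, 28.2, 35.8 and 31.8 CPM in wild type and 25.6, 33.0, 31.0, 36.1 and 35.3 CPM in Tie1-CR, with full overlap (log2 difference 0.05, interval -0.18 to 0.27).

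The netrin receptors Unc5a and Unc5b were at similar levels in both genotypes. Unc5b, known as an endothelial receptor that restrains sprouting, measured 30.6, 32.2, 41.2 and 39.4 CPM in wild type and 39.4, 42.6, 36.3, 42.3 and 30.4 CPM in Tie1-CR. Unc5a measured 34.7, 34.9, 41.1 and 36.8 CPM and 35.3, 37.1, 33.1, 39.3 and 32.5 CPM. Both overlapped, with log2 differences of 0.09 (95% interval -0.16 to 0.34) for Unc5b and -0.05 (-0.21 to 0.10) for Unc5a. These intervals do not show that the levels are the same.

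**Figure D2:**
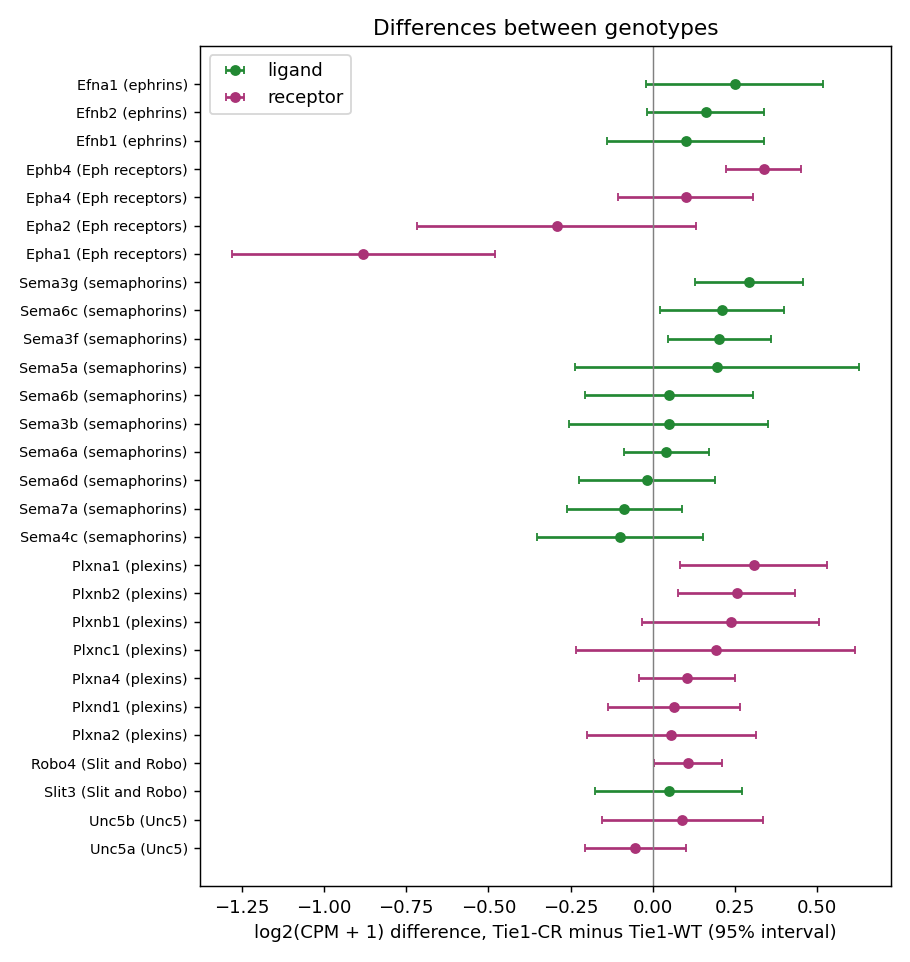
Log2(CPM + 1) differences of the 28 genes, Tie1-CR minus Tie1-WT, with 95% intervals from limma (x axis), grouped by family (y axis) and coloured by role. All plexins and ephrins lie above 0, while the Eph receptors run from -0.88 (Epha1) to 0.34 (Ephb4).

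Ligands and receptors differed little as groups. Of the 14 ligands, 11 had a log2 difference above 0 and the median was 0.07. Of the 14 receptors, also 11 were above 0 and the median was 0.10. Over all genes 41.5% were above 0 and the median was -0.03. Receptors ranged from -0.88 to 0.34 and ligands from -0.10 to 0.29. Over the 12 receptors that reached 10 CPM in both genotypes, which leaves out Epha1 and Plxnb1, the range was -0.29 to 0.34 with the Ephb4 call alone. Of the 3 genes higher without overlap, 2 were ligands (Sema3f and Sema3g) and 1 a receptor. Relative to the Tie1-WT means, the median ligand lay 0.08 to 0.15 log2 higher in the 5 Tie1-CR libraries and -0.03 to 0.05 in the Tie1-WT libraries. The median receptor lay 0.02 to 0.21 higher in Tie1-CR and at -0.02 to 0.06 in Tie1-WT, so receptor medians overlapped between genotypes and ligand medians did not. The Tie1-WT libraries lie near 0 here because their own means are the reference. Medians of all genes in each library were not computed, so this overlap or its absence has no background beside it. No test was made of these medians, since the genes were chosen with earlier results of these data known. In bulk RNA, more cells of a type and more RNA per cell cannot be told apart. Arterial markers (7 of 8 in the table) summed to 1794 to 2256 CPM in wild type and 2293 to 2941 CPM in Tie1-CR, without overlap. Of these 7 markers 1 was called higher, and their median log2 difference was 0.245. Such sums are weighted to the most abundant genes of a list. Sums of venous markers (3569 to 4060 and 3576 to 5410 CPM) and general capillary markers (13815 to 15946 and 15552 to 16571 CPM) overlapped between genotypes. The part of these cell types in the ligand and receptor medians was not tested.

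Level per length put ligands and receptors on a common scale. CPM were divided by kilobases of annotated exon, the union over protein-coding transcripts in GENCODE M21. On this scale Sema3f came first (298 ± 3.75 CPM per kilobase in Tie1-WT and 344 ± 33.4 in Tie1-CR, SD), followed by Efnb2 (236 ± 18.5 and 264 ± 24.8). Ephb4, Efnb1 and Efna1 were next, with means of 167 to 185 in Tie1-WT and 195 to 229 in Tie1-CR. Sema3g, Robo4, Sema6a and Plxna1 followed at 69.4 to 120 in Tie1-WT. The lowest were Sema6c, Epha1, Sema5a and Plxnb1, the last at 0.935 ± 0.148 in Tie1-WT and 1.12 ± 0.165 in Tie1-CR. Neighbours in this order mostly overlapped over the 9 libraries, except Sema7a over Sema4c and Unc5a over Unc5b. Exon unions can exceed the transcripts in use, and cDNA coverage may be uneven, so these levels are approximate.

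**Figure D3:**
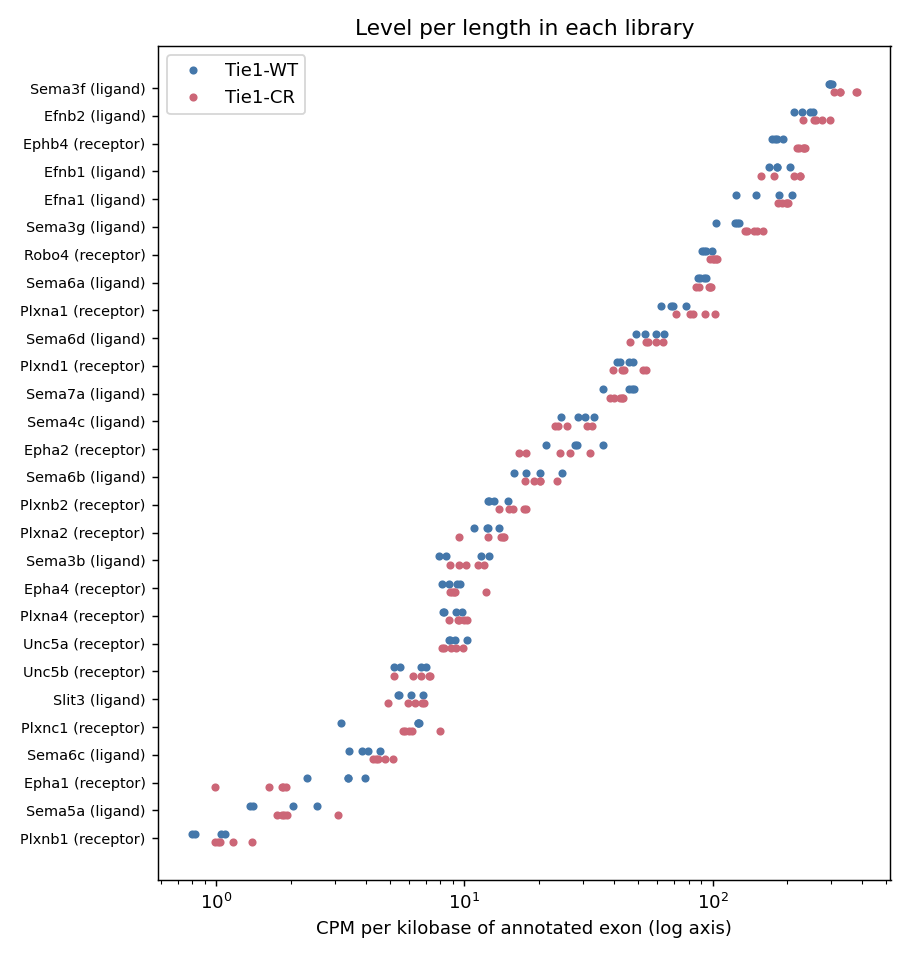
CPM per kilobase of annotated exon (x axis, log scale) for the 28 genes (y axis, ordered by mean), with a point for each library of Tie1-WT and Tie1-CR. The order runs from Sema3f to Plxnb1, and the 5 highest genes hold 4 ligands and Ephb4.

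Within ligand and receptor pairs, the ratio of levels per length overlapped between genotypes in all 4 pairs compared. The Ephb4 to Efnb2 ratio was 0.698, 0.735, 0.810 and 0.839 in Tie1-WT and 0.852, 1.01, 0.794, 0.912 and 0.793 in Tie1-CR. Receptor and ligand were thus of similar level in every library, with the highest ratio in Tie1-CR replicate 2, where Efnb2 was low. The Epha2 to Efna1 ratio was 0.102 to 0.241 in Tie1-WT and 0.0825 to 0.167 in Tie1-CR, so the ligand was the more abundant of the pair throughout. Plxna2 stood at 0.118 to 0.158 of Sema6a in Tie1-WT and 0.111 to 0.149 in Tie1-CR. Plxnc1 stood at 0.0663 to 0.179 of Sema7a and 0.134 to 0.187, the lowest value being Tie1-WT replicate 3.

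Several genes had their highest or lowest Tie1-CR values in the same libraries. These libraries and genes were chosen from the values themselves. In Tie1-CR replicates 2 and 4, Efnb1 (511 and 578 CPM), Epha2 (64.7 and 69.5 CPM) and Sema4c (101.2 and 99.1 CPM) had the lowest values of the genotype. In the same libraries Plxna1 (921 and 842 CPM), Plxnb2 (116 and 114 CPM) and Plxna4 (132 and 128 CPM) had the highest. Efnb2 (1105 and 1228 CPM) was also lowest there, while Efna1 (367 and 369 CPM) was highest, so the ephrins did not vary as a group. Plxnc1, Sema6a, Sema6c, Sema6d, Unc5a and Unc5b were highest there too. Replicates 2 and 4 also had the highest sums of venous markers (7 of 8 in the table), 5410 and 4968 CPM against 3576 to 4616 CPM in the other Tie1-CR libraries. A sum is weighted to its most abundant genes, and between genotypes the median log2 difference of these 7 markers was -0.10. Replicates 2 and 4 had the fewest counted reads of the genotype, 38208696 and 44346998. The part of either in this pattern was not tested, and no grouping of libraries by these values was compared. How many of all genes in the table have the same pattern was not counted, so it is not shown to be particular to guidance genes.

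**Figure D4:**
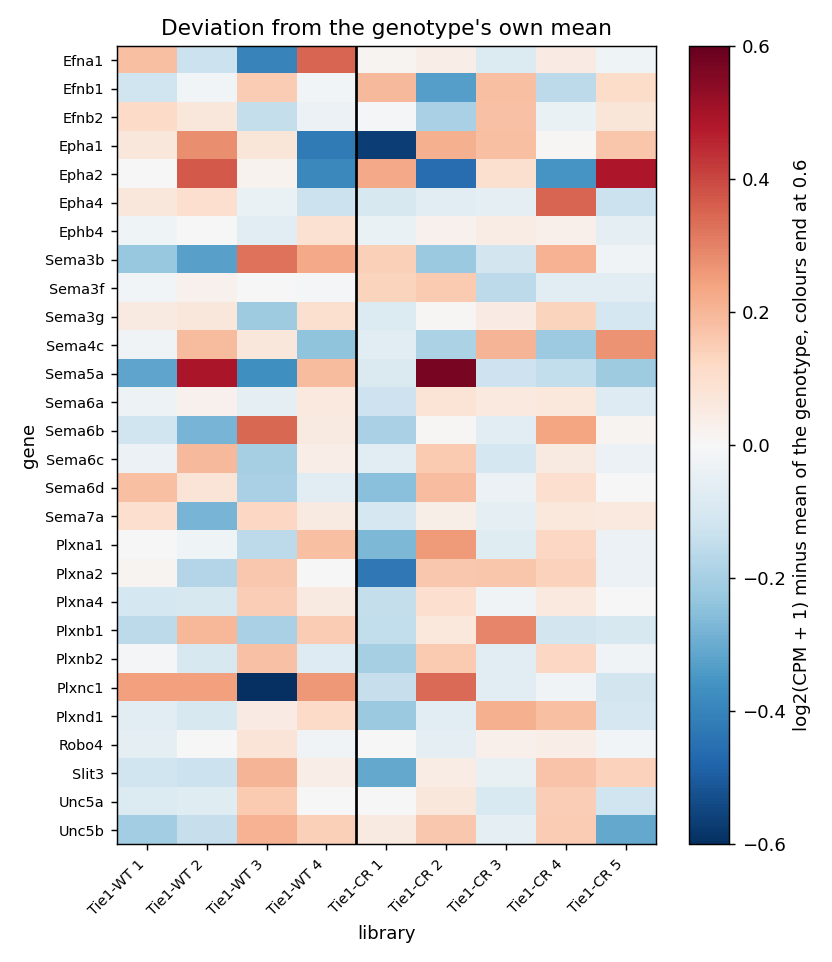
Deviation of each library (x axis) from the mean of its own genotype in log2(CPM + 1), for the 28 genes (y axis), with colours ending at 0.6 in either direction. Tie1-CR replicates 2 and 4 share low Epha2 and Efnb1 with high Plxna1, and Plxnc1 is far below its group in Tie1-WT replicate 3.

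Other genes of these pathways were taken from a list of 85, of which 60 were in the table. Of the 7 netrins and coreceptors measured, 0 were called in limma and 2 had an unadjusted p below 0.05 (Rgmb and Ptk7), a share of 28.6% against 22.3% of all genes. The shared coreceptor of class 3 semaphorins, Nrp1, measured 1474 ± 131 CPM in wild type and 1498 ± 79.5 CPM in Tie1-CR (SD), a log2 difference of 0.03 (95% interval -0.13 to 0.18). Ntn1, a netrin that binds Unc5 receptors, measured 359 ± 38.6 and 370 ± 33.6 CPM. Of the 53 cytoplasmic effectors, 1 was called higher (Fes) and 2 lower (Rnd1 and Cfl1), near the background shares.

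Rnd1, a GTPase that binds plexins and lowers R-Ras activity downstream of them, measured 12.6, 16.0, 16.8 and 11.1 CPM in wild type and 9.15, 10.2, 8.24, 6.79 and 8.35 CPM in Tie1-CR. It fell by 0.65 on the log2 scale without overlap (limma adjusted p = 0.0252). Cfl1, the actin-severing protein cofilin, was 645 to 675 CPM in wild type and 497 to 584 CPM in Tie1-CR, and fell by 0.26 (limma adjusted p = 0.0304). Fes, a tyrosine kinase linked to plexin A signalling, was 100.4 to 116 CPM in wild type and 119 to 134 CPM in Tie1-CR, and rose by 0.24 log2 (limma adjusted p = 0.0357). All 3 calls ended when wild type replicate 1, 2 or 3 was left out, and when replicate 4 of Tie1-CR was. Those fits called 60 to 183 of all 9277 genes, against 376 in the main fit. The call of Cfl1 also ended without wild type replicate 4, and that of Fes without replicate 1, 2 or 5 of Tie1-CR. With the immediate early covariate, the difference of Rnd1 was -0.07 log2, that of Fes -0.08 and that of Cfl1 -0.26 (limma adjusted p = 0.973, 0.893 and 0.729). With the replicate block Cfl1 and Fes were not called (limma adjusted p = 0.0803 and 0.0896). That fit also left out replicate 5 of Tie1-CR, which has no Tie1-WT library of the same number.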

How the data were processed

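The authors deposited 1 table under the name TPM, but its numbers are CPM (reads scaled to a common library total), since 100% of a library's values are whole multiples of 1 step, within 0.01 reads. Per the submitters' processing notes, the tool named is STAR 2.7 and the builds are GRCm38.p6 and mm10. The labels' protocols give PicoPure RNA extraction and SMARTer Ultra Low libraries, which amplify cDNA, so counting errors are minimum values. The sources used here give neither the counting tool nor the gene filter. Whether every library came from its own mouse is not in the labels, so p-values reflect only variation among these libraries, which may be technical.

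Values were used as log2(CPM + 1), and differences are Tie1-CR minus Tie1-WT, which understates changes of low genes. Genes were tested with limma 3.58.1 in R 4.3.3 (trended empirical Bayes, two-sided). The test was checked on simulated data that gave every gene the same spread beyond counting. That spread was smaller than the one of Epha1 within either genotype, so the check does not cover such genes. Lengths and positions came from GENCODE M21, which held all 28 members. The members and lists were chosen with earlier results of these data known. Values in every library are given for genes that were called or did not overlap, for the 3 highest per length in each family, and for listed ligand and receptor pairs. Other members are named by range. Of the pathway genes, those called are given, and Rgmb, Ptk7, Nrp1 and Ntn1 were chosen after their values were seen. Plots were made with matplotlib 3.10.9. Alternatives covered the pseudocount, a filter, scaling, the variance model, covariates, a replicate block and each library left out.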

Additional observations from a re-analysis of the deposited data

Results flagged for a closer look

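In 56 groups tested (28 genes in 2 genotypes), 5 held a library far from the others of its genotype by Dixon's criterion, which chance alone meets in about 1 of 20 groups. Plxnc1 was flagged in both genotypes. It was at 23.2 CPM in Tie1-WT replicate 3, where the other Tie1-WT libraries were at 47.6 to 48.0 CPM, and at 58.1 CPM in Tie1-CR replicate 2, against 41.4 to 45.01 CPM in the others. Sema3g was at 467 CPM in Tie1-WT replicate 3, against 561 to 578 CPM in the other Tie1-WT libraries. Sema5a was at 33.4 CPM in Tie1-CR replicate 2, against 19.0 to 20.9 CPM. Epha4 was at 77.2 CPM in Tie1-CR replicate 4, against 55.2 to 58.3 CPM.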

How the results depend on the processing

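Over 20 alternatives the Ephb4 call was kept in 18, and the Epha1 call in 13 of the 19 in which it was tested. Calls over all 9277 genes also changed. They were 376 in the main fit and with TMM scaling, 661 with library weights and 182 with the replicate block. With a library left out they were 60 to 355, and with the epithelial and immediate early covariates 8 and 1. The count of members called higher (1) was 2 with TMM scaling, 3 with library weights, 3 at a threshold of 0.10 and 0 with either covariate. The count called lower (1) was 0 with either covariate and with a minimum mean of 20 CPM, which removes Epha1, and 0 to 1 with each library left out. Other pathway genes called higher (1) were 0 with either covariate and with the replicate block, and 0 to 1 with each library left out. Those called lower (2) were 1 with the minimum mean, which removes Rnd1, 4 with library weights, 0 with either covariate, 1 with the replicate block, 4 at 0.10 and 0 to 3 with each library left out. The ligand median (0.07 log2) was 0.049 with the minimum mean, 0.14 with library weights, 0.032 with the epithelial covariate, 0.17 with the immediate early covariate and 0.051 to 0.12 with each library left out. The receptor median stayed within its spread.

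Differences that changed sign, none of them called in the alternative, were as follows in log2. With the immediate early covariate they were -0.17 for Efna1, 0.061 for Epha1, 0.89 for Epha2, -0.011 for Epha4, -0.082 for Plxna2, -0.10 for Plxna4, -0.26 for Plxnd1, -0.82 for Sema3b, 0.67 for Sema4c, -0.044 for Sema6a, -0.48 for Sema6b, 0.17 for Sema6d, -0.16 for Slit3, -0.57 for Unc5b and -0.080 for Fes. With the epithelial covariate they were -0.033 for Sema5a, 0.016 for Sema6d, -0.020 for Slit3 and 0.010 for Unc5a, and with TMM scaling 0.0066 for Sema6d. With libraries left out, values ran from -0.0022 to 0.16 for Plxna2, -0.061 to 0.28 for Plxnc1, -0.060 to 0.16 for Sema3b, -0.044 to 0.16 for Sema6b and -0.082 to 0.045 for Sema6d. Apart from the library named for Plxnc1, the cause was not tested.

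In the labels, same-numbered libraries share only a number. Correlations of their deviations ran from -0.14 to 0.19, which cannot show whether they are paired. The replicate block fit left out Tie1-CR replicate 5, which has no Tie1-WT library of the same number. In it, Ephb4 was at 0.35 log2 and Epha1 at -0.92, both still called (limma adjusted p = 0.0411 and 0.0422). The differences were the same with that library left out and no block (limma adjusted p = 0.0143 and 0.0380). Tests on counts with edgeR and DESeq2 were not run. The limma-voom fit on whole reads, added after seeing the data, called Ephb4 (0.34) and Epha1 (-1.001). Genes that reach 10 CPM in no library are outside the table, which limits what depth allows here.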
